A study of Mus musculus with 18 samples.

Results

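The collagen genes were taken as all protein-coding mouse genes whose symbol has the form Col, a number, a and a number (Col1a1, Col4a2 and so on). The rule found 44 of them among the 20922 genes of the table. Of these, 33 had a mean of at least 10 normalized counts over the 18 libraries and were tested, 10 of 11 fibrillar, 7 of 8 basement membrane and 16 of 25 other collagens. RNA came from the tibialis anterior, which lies along the shin, collected 36 days after the femoral artery of 1 hindlimb had been ligated, a mouse model of peripheral artery disease. The muscle below the ligated artery ("ligated") and that of the opposite limb ("intact") were both sequenced. The labels describe both genotypes as having floxed Bmal1 alleles (Bmal1fx/fx) and a cross to the ACTA-rtTA-TRE-Cre transgenes, in which a promoter of skeletal muscle actin drives a doxycycline-dependent Cre, and all surgery followed a week after 3 daily oral doses of doxycycline. The 4 groups were WT intact (5 libraries), WT ligated (4), BKO intact (5) and BKO ligated (4), where WT is the control and BKO the muscle deletion of Bmal1, the activator of the circadian clock. The Cre genotype is written as +/+ in the control and -/- in the knockout labels, and the direction of every genotype comparison therefore rests on the group names. The sources used here give no strain, sex, age or time of day of collection.

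Depth was 14.1 to 25.6 M reads per library (M, mega). The mitochondrial ribosomal RNA mt-Rnr2 took 31.9 to 36.1% of the reads in intact and 38.1 to 55.5% in ligated libraries, most in BKO ligated 4 (51.9%) and 5 (55.5%). The normalized count of Bmal1 (symbol Arntl), summed over all its exons, was 41.3 to 68.4 in WT intact, 12.2 to 18.3 in WT ligated, 42.4 to 61.1 in BKO intact and 63.8 to 82.0 in BKO ligated libraries. The intact groups overlapped, and every library labelled BKO ligated was above every one labelled WT ligated. The labels name no deleted exon, so this total does not check them, and WT and BKO are used below as the names that the libraries carry. Of 8 muscle fibre markers (Acta1, Ckm, Mb, Tnnt3, Myh4, Myh1, Des and Ttn) none was at 0 in any group, and their sum was 1655010 to 2843120 normalized counts per library. No label ties a library to its own animal. A p-value here therefore reflects the spread between these samples, which may in part be technical.

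Collagens are triple-helical proteins built from 3 alpha chains, each chain the product of its own gene. Fibrillar collagens (types I, II, III, V, XI, XXIV and XXVII) form the fibres that give connective tissue its tensile strength. Basement membrane collagens form the sheet around muscle fibres and capillaries, with type IV as its network and types XV and XVIII, which carry heparan sulfate or chondroitin sulfate chains, linked to it. The others include the beaded filaments of type VI, the FACIT collagens that sit on the surface of fibrils, short-chain network collagens and transmembrane collagens. In skeletal muscle most interstitial collagen is made by fibroblast-like cells (fibro-adipogenic progenitors), while endothelial cells and muscle fibres contribute to basement membranes. In bulk tissue, more cells of a type and more RNA per cell cannot be told apart.

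Levels of different collagens were compared as normalized counts per kb of transcript. A group value is the mean ± SD over its libraries, n = 5 for an intact and n = 4 for a ligated group, here and below. In WT intact muscle the level was highest for Col3a1, the single chain of type III collagen, at 300.0 ± 35.5 (SD, n = 5) per kb, and next for Col1a2 of type I collagen at 255 ± 36.3 (SD, n = 5), and the libraries of these 2 genes overlapped. Col4a1 (171 ± 17.3, SD, n = 5), Col1a1 (169 ± 40.7), Col6a1 (159 ± 17.7), Col4a2 (133 ± 21.3) and Col6a2 (123 ± 19.8) followed, and each overlapped the next in this order. Col6a3 (94.2 ± 14.5) and Col15a1 (82.5 ± 24.6) came after them, and all other collagens lay at 49.6 per kb or lower. Col3a1 led in the other 3 groups too, without overlap with the next gene, at 1319 ± 252 per kb in WT ligated, 339 ± 40.3 in BKO intact and 1188 ± 319 in BKO ligated muscle.

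**Figure D1:**
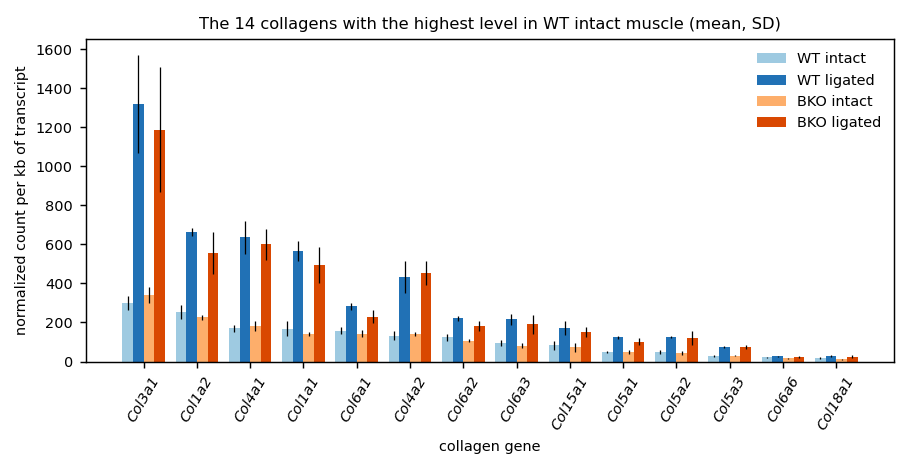
Normalized counts per kb of transcript (linear axis from 0) of the 14 collagens with the highest level in WT intact muscle; bars are means of 5 intact or 4 ligated libraries and lines are the SD. Col3a1 stands highest in each of the 4 groups, at 300.0 per kb in WT intact and 1319 per kb in WT ligated muscle.

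The 11 collagens below the filter had means of 0.225 to 8.59 normalized counts over the 18 libraries. They were Col2a1 and Col10a1, the collagens of cartilage and its growth zone, Col9a2 and Col9a3, also of cartilage, Col4a6, Col6a4, Col6a5, Col26a1 and the transmembrane collagens Col13a1, Col17a1 and Col25a1. Col13a1, whose protein sits at the neuromuscular junction, was the nearest to the filter from below, with a mean of 8.59. The nearest from above was Col8a2, a short-chain network collagen, with a mean of 10.6. The sum of all collagen normalized counts was 9398 to 12284 in WT intact, 27706 to 34940 in WT ligated, 9098 to 10657 in BKO intact and 24131 to 33168 in BKO ligated libraries. Every ligated library thus lay above every intact one. As a share of reads, which mt-Rnr2 also fills, this was 0.0496 to 0.0624% in WT intact, 0.157 to 0.201% in WT ligated, 0.0483 to 0.0598% in BKO intact and 0.0945 to 0.184% in BKO ligated libraries.

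Ligation in WT muscle was followed by higher RNA of most of the tested collagens, among them the fibrillar and type IV genes with the highest levels. Of the 33 tested genes 20 were higher and 0 lower in ligated than in intact WT muscle (limma, Benjamini-Hochberg adjusted p under 0.05), 6 of 10 fibrillar, 5 of 7 basement membrane and 9 of 16 other collagens. Of all 12262 genes tested, 39.8% passed in this comparison, where 18.7% of all were higher and 21.1% lower. The median log2 fold change was 0.86 over the 33 collagens, 1.31 over the fibrillar, 1.09 over the basement membrane and 0.81 over the other ones, against -0.0025 over all genes. No collagen was lower at an unadjusted p under 0.05 either, and edgeR and DESeq2 on the recovered reads gave the same counts of 20 higher and 0 lower. Without WT ligated 2, Col7a1 passed as lower (limma adjusted p = 0.039, 0.151 with all libraries). In 19 of the 33 every ligated library lay above every intact one, against 14.7% of all genes, and in none below, against 17.8%.

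In BKO muscle 22 of the 33 were higher and 0 lower after ligation, 7 of 10 fibrillar, 5 of 7 basement membrane and 10 of 16 other collagens, where 47.2% of all genes passed, 22.1% higher and 25.1% lower. Here too limma found none lower at an unadjusted p under 0.05, and edgeR and DESeq2 gave 22 higher and 0 lower. Without BKO intact 5, Col4a4 passed as lower (limma adjusted p = 0.0398, 0.247 with all libraries). The medians were 1.09 over all 33, 1.27 over the fibrillar, 1.17 over the basement membrane and 0.72 over the other collagens, against -0.0036 over all genes. For 20 collagens every ligated library was above every intact one, against 16.0% of all genes, and for none below, against 19.7%. The same 19 collagens were higher in both genotypes. Col23a1 passed in WT and not in BKO, Col6a6, Col11a1 and Col16a1 passed in BKO and not in WT, and 10 passed in neither.

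**Figure D2:**
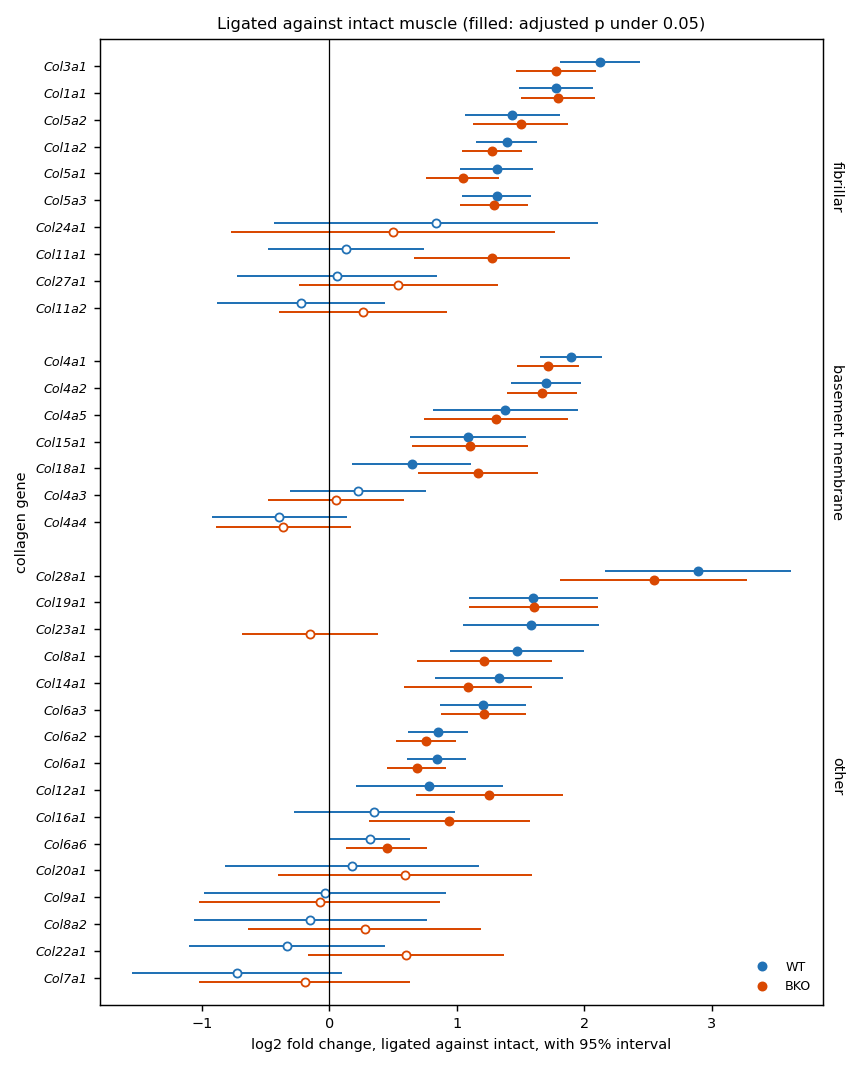
Log2 fold change of ligated against intact muscle for the 33 tested collagens in WT (blue) and BKO (orange) by class, with the 95% interval of limma; filled points passed at an adjusted p under 0.05. All filled points lie to the right of 0, 20 for WT and 22 for BKO, and Col23a1 has its WT point at 1.58 and its BKO point at -0.15.

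Among the fibrillar collagens, Col3a1 (ENSMUSG00000026043, chr1:45311538-45349706, plus strand, mm10) had 1383, 1884, 1795, 1716 and 1566 normalized counts in the 5 WT intact and 6975, 7258, 5880 and 9243 in the 4 WT ligated libraries. The BKO values were 2049, 1915, 1513, 1882 and 2071 in intact and 5365, 6780, 5238 and 9060 in ligated libraries. All ligated libraries stood above all intact ones, and library 6 was the highest of the ligated group in both genotypes. The log2 fold change was 2.13 ± 0.15 (SE) in WT (adjusted p = 1.33e-09) and 1.78 ± 0.15 in BKO (adjusted p = 1.16e-08), which are 4.40-fold and 3.50-fold by the means.

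Type I collagen, the main collagen of tendon and scar, joins 2 chains of Col1a1 with 1 of Col1a2. Col1a1 (ENSMUSG00000001506, chr11:94936224-94953042, plus strand) had 778, 1362, 1113, 808 and 947 normalized counts in WT intact and 3240, 3360, 3085 and 3785 in WT ligated libraries. In BKO the 5 intact libraries had 797, 839, 870, 895 and 767 and the 4 ligated ones 2544, 2890, 2561 and 3700. No ligated library fell among the intact ones, and the intact WT libraries spread more widely (coefficient of variation 24.1%) than the intact BKO libraries (6.26%). The log2 fold change was 1.78 ± 0.14 in WT (adjusted p = 4.38e-09) and 1.79 ± 0.14 in BKO (adjusted p = 4.13e-09). Col1a2 (ENSMUSG00000029661, chr6:4504814-4541544, plus strand) had 1260, 1529, 1616, 1181 and 1239 in WT intact and 3498, 3473, 3529 and 3712 in WT ligated libraries. Its BKO libraries had 1311, 1207, 1243, 1149 and 1137 in intact and 2839, 3113, 2272 and 3659 in ligated muscle. The groups were again apart, and the change was smaller than that of Col1a1 in value, at 1.39 ± 0.11 in WT (adjusted p = 7.42e-09) and 1.28 ± 0.11 in BKO (adjusted p = 1.86e-08).

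Type V collagen, which starts and limits the growth of type I fibrils, rose in all 3 of its chains in both genotypes. The log2 fold changes in WT were 1.31 for Col5a1, 1.43 for Col5a2 and 1.31 for Col5a3, and those in BKO 1.05, 1.503 and 1.29. Col5a2 lies next to Col3a1 on chromosome 1, on the opposite strand (45374321 to 45503282). The minor fibrillar collagens were low and variable. Col11a1 of type XI, the cartilage relative of type V, had 15.5, 39.1, 17.7, 30.8 and 30.1 normalized counts in WT intact and 32.4, 16.3, 33.95 and 32.1 in WT ligated libraries. In BKO it had 13.3, 19.0, 26.6, 19.3 and 14.4 in intact and 32.0, 60.1, 43.9 and 47.9 in ligated libraries, without overlap. It passed in BKO (1.27 ± 0.29, adjusted p = 0.00121) and not in WT (0.13 ± 0.29, adjusted p = 0.756), and the difference between these 2 effects did not pass (1.15 ± 0.41 SE, adjusted p = 0.0988). Col11a2, Col24a1 and Col27a1 passed in neither genotype, with log2 fold changes of -0.22, 0.84 and 0.06 in WT and 0.27, 0.50 and 0.54 in BKO.

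Upstream sequences are printed for the fibrillar genes Col3a1 and Col1a2, for Col28a1 and Col23a1, and for the shared start of Col4a4 and Col4a3, since the results below turn on these members. They come from RefSeq (assembly GRCm38.p6, windows from 250 bases before to 50 after each gene's start), cut to the bases that are in no exon of GENCODE M21, and 35 of the 44 collagens matched a window. Capitals mark matches to the motifs searched on both strands, which were the E-box CACGTG and its variant CACGTT, both known as sites of BMAL1 and CLOCK, the TATA box TATAAA, the CCAAT box and the GC box GGGCGG. None of these motifs contains another.

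Col3a1, chr1:45311288-45311537, plus strand: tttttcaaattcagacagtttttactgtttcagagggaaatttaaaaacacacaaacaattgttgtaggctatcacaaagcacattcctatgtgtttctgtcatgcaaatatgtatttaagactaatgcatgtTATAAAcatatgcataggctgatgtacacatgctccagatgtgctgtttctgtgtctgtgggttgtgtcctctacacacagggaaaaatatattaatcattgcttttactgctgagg
Col1a2, chr6:4505370-4505492, plus strand: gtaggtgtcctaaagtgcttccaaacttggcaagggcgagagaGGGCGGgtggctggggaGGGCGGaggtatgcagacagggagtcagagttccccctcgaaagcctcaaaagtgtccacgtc
Col28a1, chr6:8192618-8192867, minus strand: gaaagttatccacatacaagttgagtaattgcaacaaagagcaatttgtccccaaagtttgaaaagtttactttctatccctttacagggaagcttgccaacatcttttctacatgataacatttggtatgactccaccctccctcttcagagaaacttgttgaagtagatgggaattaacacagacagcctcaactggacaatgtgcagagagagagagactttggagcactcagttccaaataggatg
Col23a1, chr11:51289670-51289919, plus strand: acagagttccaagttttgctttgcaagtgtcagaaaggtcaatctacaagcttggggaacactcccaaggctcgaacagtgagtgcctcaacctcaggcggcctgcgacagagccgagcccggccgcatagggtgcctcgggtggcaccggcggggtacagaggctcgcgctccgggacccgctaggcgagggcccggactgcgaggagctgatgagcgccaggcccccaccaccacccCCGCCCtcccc
Col4a4 and Col4a3, chr1:82586850-82586920, minus strand (that of Col4a4): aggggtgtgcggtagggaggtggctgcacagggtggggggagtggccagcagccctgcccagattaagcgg

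The Col3a1 stretch holds 1 TATA box 117 bases before the start, that of Col1a2 2 GC boxes, that of Col23a1 1 GC box on the other strand 11 bases before the start, and those of Col28a1 and of Col4a4 and Col4a3 no match. The Col1a2 stretch lies inside the gene as GENCODE M21 draws it, in no exon. Over the whole windows, CACGTG was in 0 of the 35 collagens against 7.15% of 32851 RefSeq windows, and CACGTT in 2 (Col4a4 and Col6a6) against 4.68%. The CCAAT box was in 13 (37.1%) against 37.4%, TATAAA in 5 (14.3%) against 13.6% and the GC box in 22 (62.9%) against 35.7%. The units differ slightly: a collagen counted if any of its windows held the motif, and the 35 had 38 windows, while the RefSeq share is per window. Among collagens that rose in both genotypes, 15 had a window and 9 of these held a GC box, and among those that passed in neither, 8 had one and 4 held it. These are matches of letters in a short window and no binding was measured.

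Among basement membrane collagens, Col4a1 (ENSMUSG00000031502, chr8:11198423-11312826, minus strand) had 952, 1088, 1235, 1157 and 1215 normalized counts in WT intact and 3826, 4194, 3833 and 5016 in WT ligated libraries. In BKO it had 1174, 1172, 1301, 1437 and 976 in intact and 3245, 4318, 4412 and 3928 in ligated libraries. Col4a2 (ENSMUSG00000031503, chr8:11312805-11449287, plus strand), whose chain joins that of Col4a1 in the common type IV network, had 631, 980, 879, 855 and 952 in WT intact and 2404, 3005, 2328 and 3454 in WT ligated libraries. Both genes were higher in every ligated library than in any intact one of their genotype. In BKO, Col4a2 had 847, 845, 938, 1001 and 950.5 in intact and 2554, 3125, 3371 and 2632 in ligated libraries. For Col4a1 the log2 fold change was 1.90 ± 0.11 in WT (adjusted p = 2.79e-10) and 1.71 ± 0.11 in BKO (adjusted p = 1.15e-09), the smallest adjusted p of any collagen in each genotype. For Col4a2 it was 1.70 ± 0.13 in WT (adjusted p = 3.84e-09) and 1.66 ± 0.13 in BKO (adjusted p = 5.06e-09).

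The type IV genes lie in 3 head-to-head pairs, and the pairs differed in level and response. Col4a1 and Col4a2 are transcribed away from each other from starts that overlap by 22 bases on chromosome 8, and they rose together. Col4a4 and Col4a3, whose chains with that of Col4a5 form a second network best known from the kidney glomerulus, start 71 bases apart on chromosome 1. Col4a3 had 39.9 ± 15.5 normalized counts in intact and 44.6 ± 6.71 in ligated WT muscle, and 43.2 ± 10.9 in intact and 44.5 ± 10.3 in ligated BKO muscle. Col4a4 had 60.4 ± 8.92, 46.2 ± 10.9, 61.2 ± 23.6 and 45.7 ± 11.9 in the same order, and the libraries of all 4 groups overlapped in each comparison for both genes. Neither passed for ligation, with log2 fold changes of 0.23 (95% interval -0.30 to 0.75) and 0.05 (-0.47 to 0.58) for Col4a3 and -0.39 (-0.92 to 0.13) and -0.36 (-0.88 to 0.16) for Col4a4 in WT and BKO. The upper ends of these intervals lie below the lower ends for Col4a1 and Col4a2 (1.66 and 1.43 in WT, 1.48 and 1.40 in BKO). The pair on chromosome X, Col4a5 and Col4a6, starts 1308 bases apart. Col4a5 had 14.2, 20.1, 16.8, 22.2 and 12.0 normalized counts in WT intact and 64.8, 32.5, 40.05 and 48.6 in WT ligated libraries, without overlap. It rose by 1.38 ± 0.27 in WT (adjusted p = 0.000343) and 1.31 ± 0.27 in BKO (adjusted p = 0.00046), while Col4a6 was below the filter with a mean of 1.99.

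Col15a1 and Col18a1 encode the multiplexins, whose ends are cut to restin and endostatin, fragments known to restrain vessel growth. Col15a1 rose from 427 ± 127 to 890.5 ± 185 normalized counts in WT and from 373 ± 124 to 779 ± 126 in BKO. The log2 fold changes were 1.09 ± 0.21 (adjusted p = 0.000407) and 1.101 ± 0.214 (adjusted p = 0.000287). Col18a1 (ENSMUSG00000001435, chr10:77052178-77166548, minus strand) had 89.0, 142, 104, 113 and 67.2 normalized counts in WT intact and 166, 168, 132 and 166 in WT ligated libraries. The lowest ligated library, WT ligated 5, was below the highest intact one. Its BKO values were 81.8, 43.2, 62.0, 48.6 and 75.5 in intact and 177, 144, 88.9 and 155 in ligated libraries, which did not overlap. The log2 fold change was 0.65 ± 0.22 in WT (adjusted p = 0.0241) and 1.17 ± 0.22 in BKO (adjusted p = 0.000211), and the difference of these did not pass (0.52, 95% interval -0.13 to 1.17, adjusted p = 0.347). The WT call was lost without any 1 of WT intact 2 or 6 or WT ligated 2, 4 or 6 (adjusted p up to 0.0717).

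**Figure D3:**
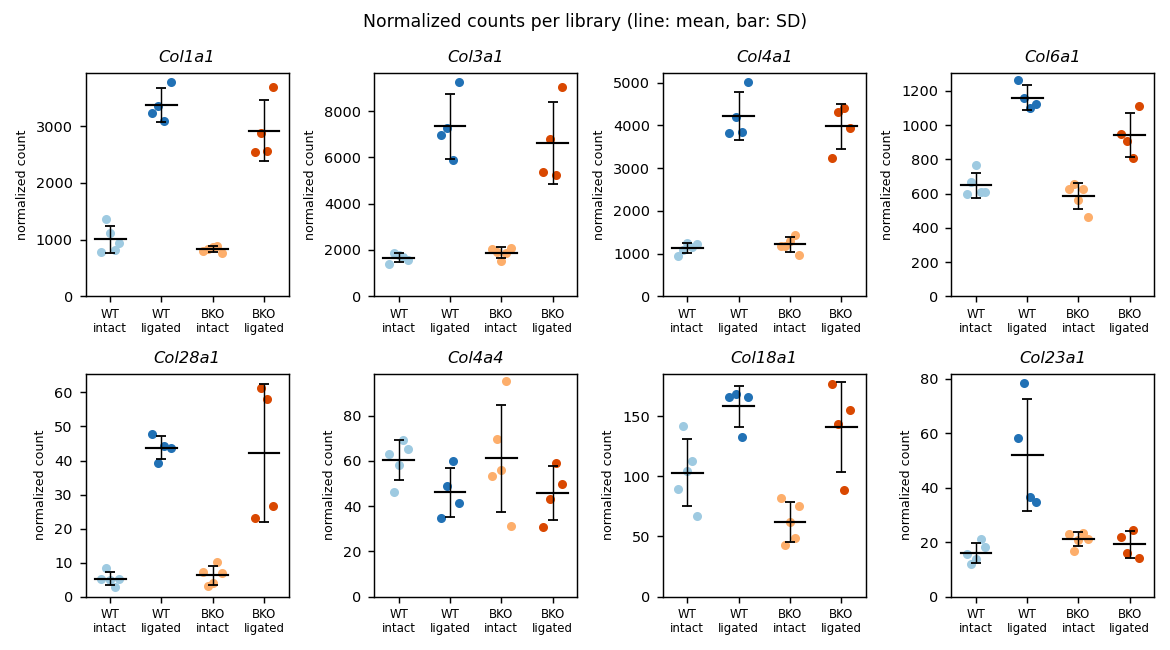
Normalized counts (linear axes from 0) of 8 collagens in each library; points are libraries, long lines group means of 5 intact or 4 ligated libraries, and bars the SD. Col1a1, Col3a1, Col4a1, Col6a1 and Col28a1 separate ligated from intact libraries in both genotypes, Col4a4 in neither, and Col23a1 in WT only, where its ligated libraries range from 34.6 to 78.7.

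Type VI collagen forms beaded filaments that tie the basement membrane of muscle fibres to the interstitium, and loss of any of its 3 main chains causes muscular dystrophy in people. Col6a1 (ENSMUSG00000001119) had 595, 668, 770, 610 and 607 normalized counts in WT intact and 1264, 1159, 1101 and 1122 in WT ligated libraries. Its BKO libraries had 628, 654, 563, 630 and 463 in intact and 946, 909, 806 and 1114 in ligated muscle. The groups did not overlap, and the log2 fold change was 0.84 ± 0.11 in WT (adjusted p = 3.09e-06) and 0.68 ± 0.11 in BKO (adjusted p = 2.87e-05). Its neighbour on chromosome 10, Col6a2, had 475, 599, 714, 566 and 514 in WT intact and 1085, 1079, 960 and 997 in WT ligated libraries, and rose by 0.86 in WT and 0.76 in BKO. Col6a3 had 863, 1174, 986, 785 and 949 in WT intact and 2084, 1846, 2517 and 2316 in WT ligated libraries, and rose by 1.21 in each genotype. All ligated libraries were above all intact ones for both genes, in BKO as well. Their upper 95% limits (1.06 and 1.08 in WT, 0.91 and 0.99 in BKO for Col6a1 and Col6a2) lay below the lower limits of Col1a1 and Col3a1 (1.49 and 1.82 in WT, 1.51 and 1.47 in BKO). Col6a6, a chain that can replace that of Col6a3, differed least of the tested type VI genes, from 188 ± 30.9 to 231 ± 14.3 in WT and from 151 ± 26.0 to 206 ± 39.8 in BKO. Its log2 fold changes were 0.32 (adjusted p = 0.0978) and 0.45 (adjusted p = 0.0165), and the BKO call was lost without BKO ligated 6 (adjusted p = 0.077) and without BKO ligated 4 and 5. That call was also lost with the replicate number as a block in the fit.

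Among FACIT collagens 3 of 7 rose in WT and 4 of 7 in BKO, where 39.8% and 47.2% of all genes passed in either direction and 18.7% and 22.1% were higher. Col14a1, found in tendon and perimysium, rose by 1.33 in WT and 1.09 in BKO. Col19a1, known from differentiating muscle and from neurons, went from 14.5 ± 3.90 to 46.4 ± 13.8 normalized counts in WT and from 15.8 ± 2.52 to 50.5 ± 11.1 in BKO, a log2 fold change of 1.60 ± 0.24 in each. Col12a1, which binds type I fibrils, had 246, 205, 216, 79.95 and 112 normalized counts in WT intact and 276, 270, 278 and 267 in WT ligated libraries. The 4 WT ligated libraries lay close together above all intact ones, which ranged from 79.95 to 246. In BKO the intact libraries had 139, 109, 99.4, 74.5 and 78.9 and the ligated ones 221, 225, 165 and 365, again without overlap. It rose by 0.78 in WT (adjusted p = 0.0268) and by 1.25 in BKO (adjusted p = 0.000793), and the WT call was lost without any 1 of WT intact 5 or 6 or WT ligated 2, 4 or 5 (adjusted p up to 0.0816). Col16a1 passed in BKO (0.94 ± 0.30, adjusted p = 0.0138) and was at 0.35 ± 0.30 in WT. Col9a1, Col20a1 and Col22a1, the last a collagen of the myotendinous junction, passed in neither genotype, with means of 8.35 to 15.2, 11.9 to 21.3 and 87.5 to 128 normalized counts in the 4 groups.

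Outside these families the largest change of any collagen was in Col28a1 (ENSMUSG00000068794, chr6:7997808-8192617, minus strand), a collagen with von Willebrand factor A domains known from the sheaths of peripheral nerves. It had 5.16, 8.29, 4.93, 2.89 and 5.02 normalized counts in WT intact and 47.8, 39.3, 44.4 and 43.6 in WT ligated libraries. In BKO it had 7.11, 3.16, 3.94, 10.05 and 6.78 in intact and 23.0, 61.4, 58.2 and 26.6 in ligated libraries. The groups were far apart in both genotypes, and the BKO ligated libraries fell into a lower and a higher pair. The higher pair was BKO ligated 4 and 5, the libraries with the most mt-Rnr2 reads. The log2 fold change was 2.89 ± 0.35 in WT (adjusted p = 1.51e-06) and 2.54 ± 0.35 in BKO (adjusted p = 6.21e-06), 8.33-fold and 6.81-fold by the means. With intact means of 5.26 in WT and 6.21 in BKO, Col28a1 passed the filter only through its ligated groups. Its test and its place as the largest change are therefore not independent of the filter. The intact values rest on 24 reads in all WT and 35 in all BKO libraries. Col8a1, a network collagen of vessel walls, rose by 1.47 in WT and 1.22 in BKO, while its partner Col8a2 passed in neither. Col7a1, the anchoring fibril collagen, was at -0.72 (adjusted p = 0.151) in WT and -0.20 (adjusted p = 0.71) in BKO.

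The makeup of collagen RNA also differed between the limbs, given here as shares of the summed normalized counts per kb and without a test. Fibrillar genes made up 49.1% ± 0.77 in WT intact and 56.9% ± 0.60 in WT ligated muscle, and 49.9% ± 2.76 and 55.5% ± 3.82 in BKO. The share of Col3a1 alone went from 16.9% ± 1.06 to 25.8% ± 2.22 in WT and from 20.2% ± 2.79 to 25.7% ± 2.89 in BKO. The share of the 6 type VI genes went from 22.5% ± 0.93 to 14.9% ± 1.62 in WT and from 20.8% ± 1.67 to 13.8% ± 1.32 in BKO, while that of basement membrane genes was 23.7% ± 1.47, 25.3% ± 1.24, 25.1% ± 1.99 and 27.7% ± 4.46 in the 4 groups, in the order intact and ligated WT, intact and ligated BKO. Shares must sum to 100%, so a lower share of type VI does not mean lower RNA, and Col6a1, Col6a2 and Col6a3 themselves rose.

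Ratios within a library do not depend on its scaling, and 5 ratios were compared in 4 comparisons with exact two-sided permutation tests of the log2 ratio. They are ratios of normalized counts (plus 1) and not per kb, so their size also depends on transcript length. Col1a2 over Col1a1, the chains of 1 protein, was 1.39 ± 0.19 in WT intact and 1.06 ± 0.07 in WT ligated muscle (exact p = 0.0317). In BKO it was 1.46 ± 0.13 and 1.02 ± 0.10, with an exact p of 0.0159, the smallest that 4 against 5 libraries allow. Col3a1 over Col1a1 was 1.71 ± 0.27 in WT intact and 2.17 ± 0.22 in WT ligated muscle (exact p = 0.0317), and 2.28 ± 0.38 and 2.24 ± 0.19 in BKO (exact p = 0.937). Col4a2 over Col4a1 was 0.76 ± 0.09 and 0.66 ± 0.05 in WT (exact p = 0.0952), and Col6a2 over Col6a1 0.88 ± 0.06 and 0.89 ± 0.03 (exact p = 0.81). Between genotypes the smallest p was that of intact muscle for Col3a1 over Col1a1 and for Col4a1 over Col1a1, the latter at 1.17 ± 0.24 in WT and 1.45 ± 0.12 in BKO (exact p = 0.0397 for each). Adjusted over all 20 tests none passed, with a lowest adjusted p of 0.159 by Benjamini-Hochberg. The smallest exact p possible was 0.0159 for ligation, 0.00794 between the intact and 0.0286 between the ligated groups. No ratio could therefore pass alone, even with groups fully apart, and a missed call does not show equal ratios.

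The cell types that make collagen had marker genes that moved with ligation as well, and their part in the collagen results was not tested. Of all genes 18.7% were higher and 21.1% lower in WT, and 22.1% and 25.1% in BKO. Of 10 fibro-adipogenic progenitor markers (Pdgfra, Dpt, Ly6a, Cd34, Dcn, Lum, Pi16, Gsn, Mfap5 and Clec3b) 7 were higher in WT and 5 in BKO. Their sum was 8330 to 10273 normalized counts in WT intact, 13495 to 15460 in WT ligated, 4990 to 9038 in BKO intact and 8817 to 11592 in BKO ligated libraries. Of 8 endothelial markers 7 were higher in WT and 8 in BKO, with sums of 2025 to 2617, 3641 to 4702, 2246 to 2903 and 3997 to 5311 in the same order. All 7 adipocyte markers were higher in both genotypes, from 707 to 937 in WT intact to 4604 to 6981 in WT ligated libraries and from 718 to 822 in BKO intact to 2254 to 5286 in BKO ligated libraries. Of 8 smooth muscle and pericyte markers 5 were higher in each genotype and 1 lower in BKO (sums of 5776 to 7401, 7770 to 10360, 4640 to 5690 and 7288 to 8915). Of 7 tendon markers 2 were higher and 1 lower in WT and 5 higher and 1 lower in BKO (sums of 783 to 1237, 1199 to 1743, 697 to 929 and 1023 to 1949). Of 8 macrophage markers 4 were higher and 1 lower in WT and 1 lower in BKO (sums of 398 to 589, 589 to 750, 288 to 497 and 333 to 545). Muscle fibre markers went the other way, with 5 of 8 lower in each genotype. No marker of these lists was at 0 in all libraries of a group.

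Genes that process collagen were read from a list of 48, of which 41 were tested. In WT 17 were higher and 4 lower after ligation, where 39.8% of all genes passed, 18.7% higher and 21.1% lower. In BKO 23 were higher and 5 lower, where 47.2% of all genes passed, 22.1% higher and 25.1% lower. Serpinh1, the collagen chaperone HSP47, went from 291 ± 29.9 to 618 ± 63.8 normalized counts in WT and from 255 ± 41.9 to 473 ± 55.5 in BKO. Its log2 fold change was 1.08 in WT (adjusted p = 5.22e-07) and 0.90 in BKO (adjusted p = 4.43e-06), without overlap in either. Loxl2, an enzyme that crosslinks collagen, rose by 1.41 in WT and 1.22 in BKO, and of the 5 lysyl oxidase genes 3 and 4 were higher. Adamts2, which cuts the N-terminal propeptide, rose by 0.93 and 0.92, and Pcolce, the enhancer of C-terminal cleavage, by 0.48 and 0.42.

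The hydroxylation and export genes did not move as 1 group. Plod1, a lysyl hydroxylase, rose by 0.62 in WT and 0.58 in BKO. P4hb and P4ha1, both subunits of prolyl 4-hydroxylase, fell by 0.32 and 0.31 in WT and by 0.43 and 0.57 in BKO. In all, 2 of 12 tested hydroxylation genes were higher and 2 lower in WT, and 4 higher and 3 lower in BKO. Of all genes 18.7% were higher and 21.1% lower in WT, and 22.1% and 25.1% in BKO. Mia3, which helps load procollagen into export vesicles, went from 1006 ± 65.1 to 574 ± 44.2 in WT and from 820 ± 59.9 to 525 ± 60.9 in BKO, log2 fold changes of -0.81 and -0.65. Of the other folding and export genes Ppib, a prolyl isomerase, rose by 0.60 and 0.31, and the coat protein gene Sec23a fell by 0.34 and 0.60. In all, 4 of the 7 folding and export genes were higher and 2 lower in each genotype. P4hb, Mia3 and Sec23a also serve secreted proteins other than collagen.

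Among collagen receptors, the integrin Itga1 rose by 0.67 in WT and 0.77 in BKO and the uptake receptor Mrc2 by 0.79 and 0.66. Ddr2, a receptor for fibrillar collagen, passed in BKO (0.68, adjusted p = 0.000459) and was at 0.12 in WT, and the difference of these did not pass (adjusted p = 0.0912). All 4 tested breakdown genes were higher in both genotypes: the gelatinase Mmp2 by 0.92 and 0.90, the membrane protease Mmp14 by 0.63 and 0.87, the cathepsin Ctsk by 1.28 and 0.87, and Fap by 0.62 and 0.63. The higher calls of all genes were 18.7% in WT and 22.1% in BKO. The libraries of Fap overlapped between limbs in both genotypes. The other breakdown genes of the list, the proteases Mmp9 and Mmp13, were below the filter, and were not tested. Mmp9 had 9.64 ± 4.86 normalized counts in intact and 5.79 ± 4.98 in ligated WT muscle, and 8.94 ± 5.13 and 2.14 ± 2.15 in BKO. Mmp13 had 10.7 ± 14.9 and 4.07 ± 5.38 in WT, and 1.005 ± 2.25 and 2.34 ± 1.12 in BKO.

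In intact muscle few collagens differed between the libraries labelled BKO and WT. Of the 33, 0 were higher and 1 was lower in BKO than in WT intact muscle, where 18.3% of all genes passed, 8.56% higher and 9.75% lower. At an unadjusted p under 0.05, 0 were higher and 4 lower. By edgeR and by DESeq2 on recovered reads 2 were lower and 0 higher, Col12a1 being the addition. The median log2 difference was -0.16 over the collagens against 0.00017 over all genes, and 23 lay below 0. No collagen had groups without overlap, against 7.14% of all genes on the higher and 7.23% on the lower side. For 23 of the 33 the 95% interval of the difference lay within 1 on the log2 scale, which is 2-fold, and for the other 10 it reached 2-fold.

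The gene that passed was Col18a1, at 103 ± 27.8 normalized counts in WT and 62.2 ± 16.6 in BKO intact muscle. Its log2 difference was -0.72 ± 0.21 (95% interval -1.15 to -0.29, adjusted p = 0.019), 1.66-fold lower by the means. WT intact 6 (67.2) lay below BKO intact 1 (81.8) and 5 (75.5), and the call was lost without WT intact 3, BKO intact 2 or BKO intact 4 (adjusted p up to 0.0647). In ligated muscle the difference was -0.20 (-0.68 to 0.28). Smooth muscle and pericyte markers were lower in BKO intact muscle in 4 of 8 and fibro-adipogenic progenitor markers in 3 of 10. Tendon markers were lower in 3 of 7 and adipocyte markers in 1 of 7. Of 8 muscle fibre markers 1 was higher, and 0 endothelial and 0 macrophage markers passed. Of all genes 9.75% were lower and 8.56% higher in this comparison. The sum of the 8 endothelial markers was 2025 to 2617 in WT and 2246 to 2903 in BKO intact libraries. Their part in the result was not tested.

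For type I, type III and the common type IV collagen the intervals were narrow. In intact muscle the log2 difference of BKO from WT was -0.24 for Col1a1 (95% interval -0.50 to 0.03), -0.17 for Col1a2 (-0.38 to 0.05), 0.18 for Col3a1 (-0.11 to 0.47), 0.10 for Col4a1 (-0.13 to 0.32) and 0.11 for Col4a2 (-0.15 to 0.36). In ligated muscle it was -0.22 for Col1a1 (-0.51 to 0.08), -0.28 for Col1a2 (-0.52 to -0.04, adjusted p = 0.151), -0.17 for Col3a1 (-0.49 to 0.16), -0.09 for Col4a1 (-0.34 to 0.16) and 0.07 for Col4a2 (-0.21 to 0.35). Differences of 2-fold thus lay outside the interval for each of these 5 genes in both limbs. Larger differences in intact muscle that did not pass were those of Col12a1 at -0.69 (adjusted p = 0.0683), Col24a1 at -1.31 (adjusted p = 0.124), Col27a1 at -0.68 (adjusted p = 0.198), Col7a1 at -0.71 (adjusted p = 0.206) and Col9a1 at 0.74 (adjusted p = 0.26).

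**Figure D4:**
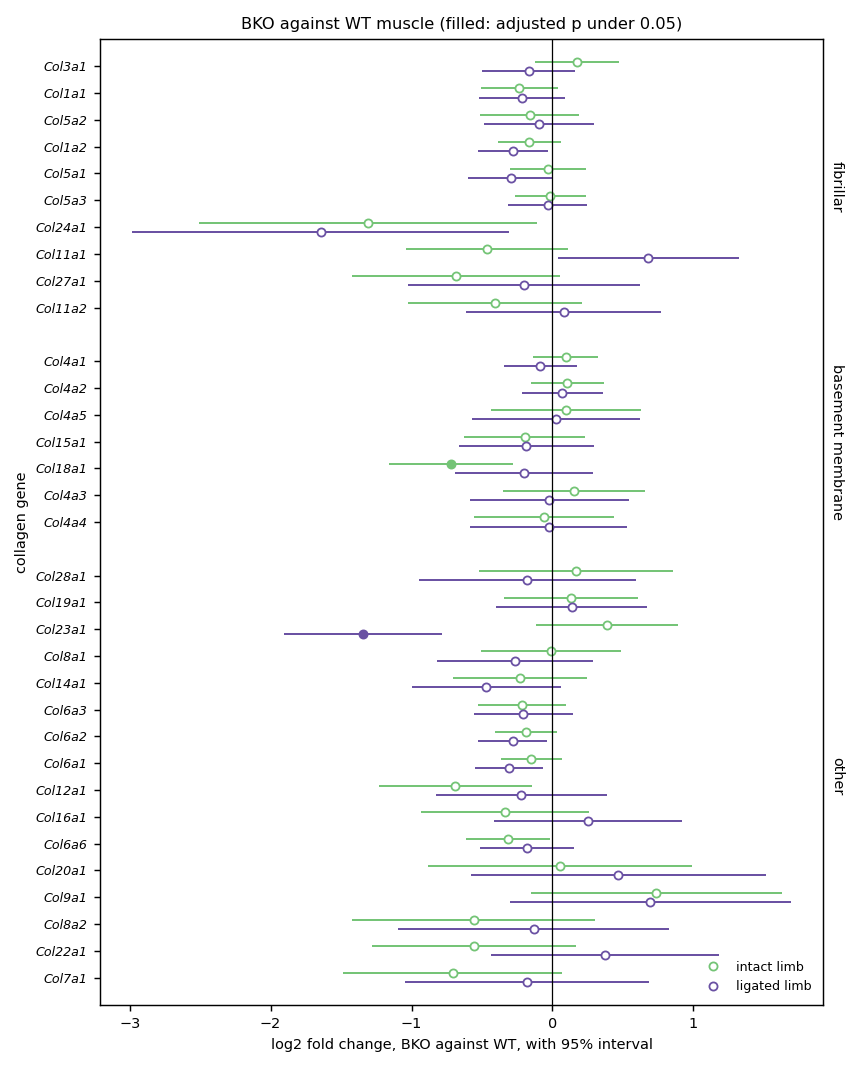
Log2 difference of BKO from WT for the 33 tested collagens in intact (green) and ligated (purple) muscle by class, with the 95% interval of limma; filled points passed at an adjusted p under 0.05. The filled points are Col18a1 in intact muscle at -0.72 and Col23a1 in ligated muscle at -1.35.

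In ligated muscle, too, 0 collagens were higher and 1 was lower in BKO than in WT, against 8.84% of all genes (4.16% higher, 4.68% lower). At an unadjusted p under 0.05, 1 was higher and 6 lower, and edgeR and DESeq2 each gave 0 higher and 1 lower. The median difference was -0.18 against -0.02 over all genes, and 24 of 33 lay below 0. The interval lay within 2-fold for 24 of the 33. The count rested on BKO ligated 6, the library of that group with most collagen: without it 5 were lower (Col14a1, Col1a2, Col23a1, Col6a1 and Col6a2).

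The gene that passed, Col23a1, encodes a transmembrane collagen whose outer part is shed from the cell surface (ENSMUSG00000063564, chr11:51289920-51583918, plus strand). It had 15.5, 11.8, 13.8, 21.2 and 18.1 normalized counts in WT intact and 58.3, 78.7, 36.6 and 34.6 in WT ligated libraries. The BKO libraries had 23.1, 16.9, 20.7, 23.4 and 21.2 in intact and 22.0, 15.95, 24.5 and 14.2 in ligated libraries. The 4 WT ligated libraries stood above the other 14, which overlapped. Its counts rest on 76 reads in all WT intact, 214 in WT ligated, 116 in BKO intact and 75 in BKO ligated libraries. Its log2 fold change on ligation was 1.58 ± 0.25 in WT (adjusted p = 4.64e-05) and -0.15 ± 0.25 in BKO (95% interval -0.68 to 0.37, adjusted p = 0.644). In ligated muscle the log2 level of BKO minus that of WT was -1.35 ± 0.27 (SE, 95% interval -1.90 to -0.79, adjusted p = 0.00212), and in intact muscle the difference was 0.39 (-0.11 to 0.88). This call kept an adjusted p of 0.011 or less when any 1 library was left out. In ligated muscle fibro-adipogenic progenitor markers were lower in BKO in 3 of 10, macrophage markers in 2 of 8 and adipocyte markers in 1 of 7. Of 8 muscle fibre markers 1 was higher and 1 lower. Among endothelial, tendon, and smooth muscle and pericyte markers 0 passed. Of all genes 4.68% were lower and 4.16% higher in this comparison. The part of these markers in the result was not tested.

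Besides Col23a1, Col24a1, a fibrillar collagen of bone, had groups that did not overlap in ligated muscle, at 71.3, 96.3, 65.3 and 108 normalized counts in WT and 46.0, 19.6, 24.5 and 20.4 in BKO. Of all genes 7.10% had no overlap on the lower side in this comparison and 5.78% on the higher side. Its difference of -1.65 ± 0.64 did not pass (adjusted p = 0.122), and its intact libraries spread from 25.0 to 155 in WT and from 3.94 to 57.9 in BKO. The type VI genes Col6a1 and Col6a2 were at -0.31 (adjusted p = 0.0994) and -0.28 (adjusted p = 0.142), Col11a1 at 0.68 (adjusted p = 0.183), Col15a1 at -0.18 (adjusted p = 0.691) and Col18a1 at -0.20 (adjusted p = 0.671).

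The interaction asked whether the effect of ligation differed between genotypes, as the log2 fold change in BKO minus that in WT. Of the 33 collagens 1 passed, Col23a1, at -1.73 ± 0.36 (95% interval -2.48 to -0.99, adjusted p = 0.00842), where 6.01% of all genes passed (3.04% higher, 2.97% lower). The call held when any 1 library was left out (adjusted p up to 0.0254). It was lost with the replicate number as a block in the limma fit (adjusted p = 0.12). The median over the collagens was 0.0031, against -0.011 over all genes, and 17 lay above 0 and 16 below. For 19 of the 33 the 95% interval lay within 2-fold, among them Col1a1 at 0.02 (-0.38 to 0.42), Col1a2 at -0.11 (-0.44 to 0.21), Col3a1 at -0.34 (-0.78 to 0.09), Col4a1 at -0.18 (-0.52 to 0.15) and Col4a2 at -0.03 (-0.41 to 0.34). Wider intervals were those of members such as Col16a1 (0.59, -0.30 to 1.47) and Col22a1 (0.93, -0.14 to 2.01). The 4 comparisons between groups share libraries, so their values are not independent of each other.

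Of the 41 tested processing genes, 0 were higher and 6 lower (14.6%) in BKO than in WT intact muscle, also by DESeq2. The share over all genes was 18.3%, with 8.56% higher and 9.75% lower. By edgeR 0 processing genes were higher and 5 lower. By limma 0 were higher at an unadjusted p under 0.05. Ddr1, a collagen receptor of epithelial and other cells, was at 111 ± 20.6 in WT and 60.7 ± 10.2 in BKO intact muscle, and Ddr2 at 464 ± 92.7 and 301 ± 52.4. Their log2 differences were -0.86 (adjusted p = 0.000492) and -0.62 (adjusted p = 0.00205), and the groups of neither gene overlapped. The other 4 were Mmp14 (-0.47), Adamts2 (-0.54), the collagen galactosyltransferase Colgalt1 (-0.35) and Mia3 (-0.30). In ligated muscle 8.84% of all genes passed by limma, 4.16% higher and 4.68% lower. There 2 processing genes (4.88%) were lower, Ddr1 at -0.61 (adjusted p = 0.0301) and Loxl2 at -0.43 (adjusted p = 0.049). None was higher, also at an unadjusted p under 0.05. By edgeR 1 was lower and by DESeq2 3, and 0 higher by either. The interaction gave 0 of 41 by limma, edgeR and DESeq2 (1 higher and 0 lower by limma at an unadjusted p under 0.05, 2 and 0 by the other tools).

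Across the 18 libraries, genes most like Col1a1 in their deviations from the group means were Sparc (r = 0.864), Psmc6 (0.843), Crnkl1 (0.794) and Ctps (0.792). Those most like Col4a1 were Gosr1 (0.868), Clec14a (0.826), Gas5 (0.798), Itgb1 (0.794) and Sacm1l (0.790). Sparc encodes a secreted collagen-binding protein, Clec14a a lectin of endothelial cells and Itgb1 the beta chain of the collagen-binding integrins. These are Pearson correlations picked as the highest over the tested genes other than collagens, given as a description, and the points share depth and scaling.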

How the data were processed

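RNA-seq libraries (TruSeq stranded total RNA, per the labels' protocols) came from 18 tibialis anterior samples. The values analysed are the authors' deposited normalized counts, a signal per gene that equals read counts divided by 1 size factor per library. Trimmomatic 0.33, STAR 2.5.2, RSEM 1.3.3, DESeq2 and the mm10 build are named in the submitters' processing notes, without their settings. Whole reads were recovered from all values (100% whole within 0.001), giving 14.1 to 25.6 M reads per library.

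Genes with a mean of at least 10 over the 18 libraries (12262) were tested with limma 3.58.1 in R 4.3.3 on log2(value + 1), in 1 fit of all 4 groups with a trended prior variance and no covariates. P-values were adjusted over all tested genes by Benjamini-Hochberg, and a gene passed at an adjusted p under 0.05. Fold changes on this scale understate the change of low genes. Alternatives used edgeR 4.0.16 and DESeq2 1.42.0 on the recovered reads, other scalings, pseudocounts and filters, a replicate block and leaving out each library. Exact permutation tests (SciPy 1.17.1) compared ratios. Levels per kb used the longest coding transcript of GENCODE M21. The fit was tested on simulated data.

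The collagen genes, their classes and the lists of processing and marker genes were chosen with earlier results of these data known. All collagens are accounted for, with the value in every library for Col1a1, Col1a2, Col3a1, Col4a1, Col4a2 and, in each comparison, for at most 3 members of each class with the smallest p, of which some are given by group only. Of each group of processing genes up to 3 with the smallest p are named in each comparison. Col4a4, Col5a2, Col5a3, Col8a1, Col8a2, Col9a1, Col11a2, Col14a1, Col19a1 and Col20a1 lie outside this rule and were named after their values were seen. Genes like Col1a1 and Col4a1 were taken from the 5 with the highest correlation of residuals. A few listed items are not reported here. The groups follow the labels, and same-numbered libraries are not said to share a mouse. Motifs were searched in RefSeq windows (GRCm38.p6).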

Additional observations from a re-analysis of the deposited data

Results flagged for a closer look

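Among 92 groups of 4 or 5 libraries (23 collagens), 5 held a library far from the others of its group, and chance flags about 1 in 20 groups. Col6a6 was lowest in BKO intact 5 at 106 normalized counts, with the next library at 153. Col11a1 was lowest in WT ligated 4 at 16.3, with the next at 32.1. Col15a1 was highest in BKO intact 2 at 585, with the next at 357. Col18a1 was lowest in WT ligated 5 at 132, with the next at 166, and this library is the one that overlapped WT intact muscle. Col24a1 was highest in WT intact 2 at 155, with the next at 56.2. The 5 values came from 5 different libraries.

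The effect of ligation on Col23a1 differed between genotypes by -1.73 on the log2 scale (limma interaction, adjusted p = 0.00842), with 4 of 4 WT ligated libraries above all WT intact ones and the BKO groups overlapping. With the replicate number as a block the interaction did not pass (limma adjusted p = 0.12).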

How the results depend on the processing

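For both ligation comparisons the number of collagens passing stayed within 1.5 times its main value under every alternative run, at 18 to 20 in WT and 21 to 23 in BKO when any 1 library was left out. Under a filter at a mean of 50, where 19 collagens were tested, 16 passed in WT and 17 in BKO. No result reversed.

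The genotype counts, of 1 gene each, moved more. In intact muscle, edgeR and DESeq2 each gave 2 lower (Col12a1 added), and leaving out 1 library gave 0 to 2. In ligated muscle the filter at 50 gave 0, since Col23a1 was then not tested, a fit of only the groups compared gave 2 (Col24a1 added), and leaving out 1 library gave 1 to 5. For the interaction the filter at 50 gave 0 for the same reason and DESeq2 gave 2 (Col11a1 added, higher). The Col23a1 interaction had 0.00764 to 0.0254 as its adjusted p over the leave-outs.

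Replicate numbers are shared between groups. The residuals of same-numbered libraries correlated at -0.0638 to 0.121, and 3 of 15 pairs correlated best with their own number. Those pairs include WT with BKO libraries, which are of different mice. Between the limbs of a genotype the correlations were -0.0638 to 0.0478, and only number 5 in WT correlated best with its own number. Low correlations do not decide whether same-numbered limbs came from the same mouse, and the labels do not say. The main fit did not pair them. For the genotype comparisons the replicate block joined WT and BKO libraries of the same number, which are of different mice, so those counts rest on an arbitrary pairing. With the replicate block the counts were 3 in intact muscle (Col12a1 and Col27a1 added), 2 in ligated muscle (Col24a1 added) and 0 for the interaction (Col23a1 adjusted p = 0.12), and for ligation in BKO Col6a6 was lost and Col22a1 added, higher.

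Without BKO ligated 4 and 5, which had the most mt-Rnr2 reads (chosen after seeing the data), the counts were 20, 21, 1, 1 and 1 in the 5 comparisons. Under other scalings the median log2 change of all genes was 0.0754 or less in size. Depth limits the low members: Col23a1 rests on 75 to 214 and Col28a1 on 24 to 192 reads per group.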
